A study of Homo sapiens with 12 samples.

Results

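The regions described here were the mid-size domains of H3K27me3 on human chromosome 19 in MKL-1 cells, an established line of Merkel cell carcinoma, a neuroendocrine skin cancer. They were chosen by intersecting the peak lists of both vehicle H3K27me3 libraries and keeping contiguous stretches of 2000 to 19999 bp, which gave 587 domains on chromosome 19 out of 12059 on chromosomes 1 to 22 and X. The domains covered 3.93 Mb, and the measurements were CUT&RUN peak lists (hg38), in which a nuclease tethered to an antibody releases the DNA around a chromatin mark. One set of MKL-1 cultures received 3 µM EPZ011989, an inhibitor of the methyltransferase EZH2, in 1% ethanol. The vehicle set received 1% ethanol alone, and both had their medium renewed on day 3, with harvest on day 6. Each set gave 2 libraries for H3K27me3, 2 for H3K4me3 and 2 for IgG, a control antibody with no chromatin target. The labels do not say that replicates came from separate cultures, so the spread between them may be technical.

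H3K27me3 is deposited by Polycomb repressive complex 2, of which EZH2 is the catalytic subunit, and lies over genes kept silent during development. H3K4me3 marks the start sites of active and poised genes, and the start of a developmental gene can carry both marks at once. Chromosome 19 is the most gene-dense human chromosome and holds large clusters of zinc finger genes, olfactory receptor genes and immune receptor genes.

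Of the 1410 protein-coding genes of chromosome 19, 1185 matched an entry in RefSeq's table of promoters (GRCh38.p14, 250 bases before the start to 50 after it), and 164 of those starts lay inside a mid-size domain. The sequences below are shown because they are the windows in which H3K4me3 was compared at the starts. They run 5′ to 3′ on the strand of the gene with each CG dinucleotide in capitals. In the windows of PLPPR3, VSTM2B, SHISA7, TBXA2R and S1PR5, H3K4me3 peaks were present in the EPZ011989 libraries, both of them, and absent from the vehicle libraries.
PLPPR3 (chr19:821906-822205, minus strand): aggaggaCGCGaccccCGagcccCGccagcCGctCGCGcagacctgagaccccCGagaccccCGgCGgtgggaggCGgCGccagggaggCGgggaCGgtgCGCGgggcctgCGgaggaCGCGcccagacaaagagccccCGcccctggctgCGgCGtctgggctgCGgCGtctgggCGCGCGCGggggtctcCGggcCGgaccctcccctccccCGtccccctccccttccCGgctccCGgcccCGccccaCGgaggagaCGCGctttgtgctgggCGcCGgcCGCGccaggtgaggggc
VSTM2B (chr19:29525168-29525467, plus strand): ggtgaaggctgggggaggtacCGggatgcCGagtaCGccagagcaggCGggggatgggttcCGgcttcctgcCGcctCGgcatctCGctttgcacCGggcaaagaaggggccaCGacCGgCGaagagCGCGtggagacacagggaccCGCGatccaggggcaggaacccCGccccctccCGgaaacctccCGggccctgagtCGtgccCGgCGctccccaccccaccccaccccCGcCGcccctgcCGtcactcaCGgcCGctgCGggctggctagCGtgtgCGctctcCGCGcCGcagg
SHISA7 (chr19:55443251-55443550, minus strand): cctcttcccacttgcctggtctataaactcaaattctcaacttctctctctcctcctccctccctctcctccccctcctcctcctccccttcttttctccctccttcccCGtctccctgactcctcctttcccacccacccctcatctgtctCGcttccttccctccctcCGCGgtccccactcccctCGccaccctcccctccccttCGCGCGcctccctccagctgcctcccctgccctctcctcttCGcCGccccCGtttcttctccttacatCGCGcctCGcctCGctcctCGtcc
TBXA2R (chr19:3606826-3607125, minus strand): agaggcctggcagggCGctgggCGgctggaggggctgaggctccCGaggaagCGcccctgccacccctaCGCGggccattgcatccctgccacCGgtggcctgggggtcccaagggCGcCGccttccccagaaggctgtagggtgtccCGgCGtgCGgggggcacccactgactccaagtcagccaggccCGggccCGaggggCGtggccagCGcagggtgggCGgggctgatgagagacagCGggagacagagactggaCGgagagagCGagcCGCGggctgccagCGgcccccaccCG
S1PR5 (chr19:10517916-10518215, minus strand): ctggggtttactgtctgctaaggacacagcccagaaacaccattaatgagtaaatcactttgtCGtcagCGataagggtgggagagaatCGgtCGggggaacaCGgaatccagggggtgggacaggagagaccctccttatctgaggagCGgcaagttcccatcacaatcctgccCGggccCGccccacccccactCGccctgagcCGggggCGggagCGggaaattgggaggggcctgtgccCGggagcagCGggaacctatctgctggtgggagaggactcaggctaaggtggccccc
The window of TGFB1 is shown because all 4 libraries covered it, that of APC2 because H3K4me3 in its domain lay elsewhere than at the start, and that of EBI3 because neither treatment put any H3K4me3 peak in its domain.
TGFB1 (chr19:41353873-41354172, minus strand): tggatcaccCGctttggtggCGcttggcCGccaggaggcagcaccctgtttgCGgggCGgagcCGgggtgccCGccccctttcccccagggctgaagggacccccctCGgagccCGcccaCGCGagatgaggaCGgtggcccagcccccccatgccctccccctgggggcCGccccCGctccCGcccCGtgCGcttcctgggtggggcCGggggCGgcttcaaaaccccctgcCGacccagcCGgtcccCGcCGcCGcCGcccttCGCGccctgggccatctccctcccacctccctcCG
APC2 (chr19:1449871-1450170, plus strand): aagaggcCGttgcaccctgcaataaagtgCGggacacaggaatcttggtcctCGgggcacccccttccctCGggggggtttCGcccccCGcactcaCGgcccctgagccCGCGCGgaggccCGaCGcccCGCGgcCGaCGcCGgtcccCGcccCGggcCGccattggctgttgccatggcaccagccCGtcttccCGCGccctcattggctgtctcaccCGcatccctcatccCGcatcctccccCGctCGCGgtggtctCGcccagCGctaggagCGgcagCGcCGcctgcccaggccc
EBI3 (chr19:4229273-4229572, plus strand): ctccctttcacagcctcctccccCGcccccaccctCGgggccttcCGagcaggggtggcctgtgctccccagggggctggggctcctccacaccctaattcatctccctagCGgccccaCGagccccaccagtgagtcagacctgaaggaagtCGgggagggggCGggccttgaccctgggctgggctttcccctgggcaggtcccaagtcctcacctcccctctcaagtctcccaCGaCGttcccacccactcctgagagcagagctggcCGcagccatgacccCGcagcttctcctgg
The windows hold 41 CG dinucleotides at PLPPR3, 33 at VSTM2B, 16 at SHISA7, 24 at TBXA2R, 14 at S1PR5, 28 at TGFB1, 33 at APC2 and 11 at EBI3.

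The libraries differed in the number of peaks they gave. The H3K27me3 lists held 363 and 22 peaks with EPZ011989 and 40782 and 44287 with vehicle. The H3K4me3 lists held 21086 to 23106 peaks with EPZ011989 and 22726 to 23804 with vehicle, and the IgG lists 12 and 9 with EPZ011989 and 38 and 4 with vehicle. Of 12 Merkel cell and neuroendocrine marker genes, 9 were read within 2500 bp of the start, and 8 of these, among them ATOH1, SOX2, ISL1 and KRT20, had H3K4me3 in all 4 libraries. The other 3 (INSM1, KRT18 and NEFM) were read over the whole gene and 2500 bp on either side, and had H3K4me3 in all 4 as well. KRT8, read at the start, had 574 and 0 bp with EPZ011989 and 1116 and 0 bp with vehicle. Of the markers of other cell types, PTPRC, CD14 and CD79A were read at the start and the rest over the whole gene with its flanks. PTPRC, CD3E, CD79A and LUM had no H3K4me3 peak in any library, whereas COL1A1, COL1A2, DCN, CD14, PECAM1 and CDH5 had one in all 4.

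Mid-size domains were denser on chromosome 19 than on any of the other 22 chromosomes, and they were longer there. Chromosome 19 held 10.03 domains per Mb, against 1.18 to 9.16 (median 3.77) on the others. Counted per 100 protein-coding genes, the order turned round: chromosome 19 had 41.6, against 21.7 to 104 (median 64.3), and stood 21st of 23. The median domain length was 5245 bp, with quartiles of 3210 and 8992 bp, against medians of 4023 to 4892 bp elsewhere. Larger H3K27me3 stretches also took up more of this chromosome. Intervals of 20 kb or more held 70.6% of its H3K27me3 bases, against 8.96% to 48.7% on the others, and mid-size domains held 25.3%, the lowest share of the 23.

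**Figure D1:**
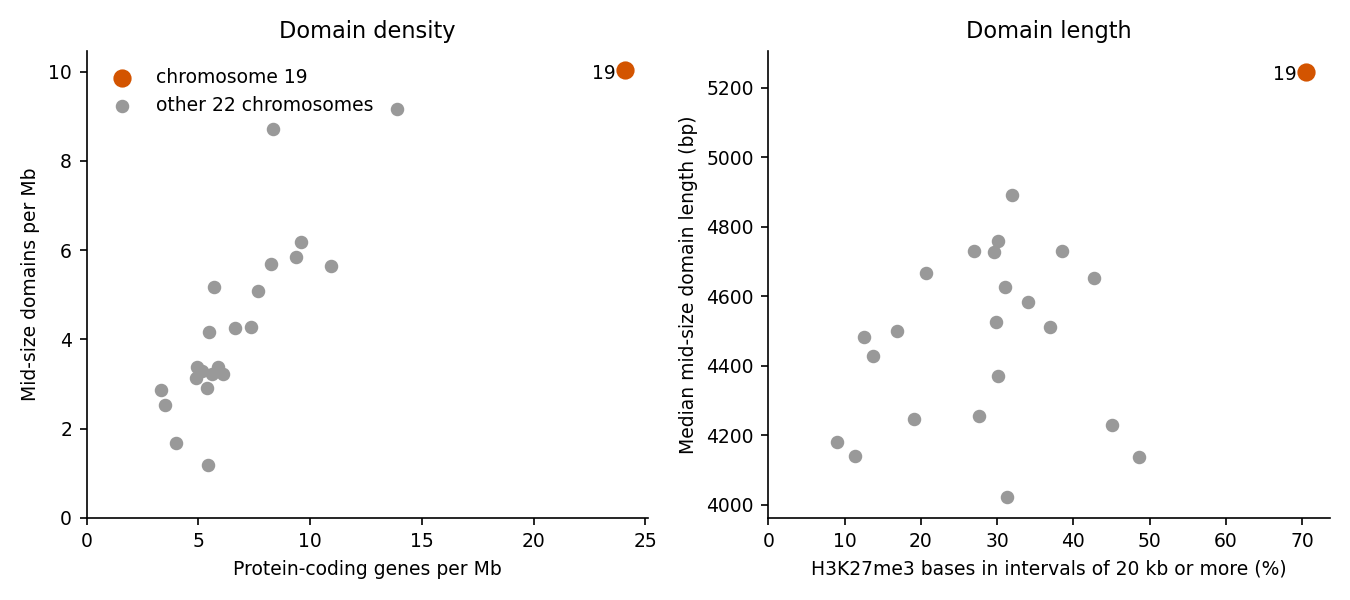
Each point is 1 chromosome; the left panel plots mid-size H3K27me3 domains per Mb against protein-coding genes per Mb, and the right panel the median domain length in bp against the percentage of H3K27me3 bases in intervals of 20 kb or more. Chromosome 19 (orange) lies at the top right of both panels, with 10.03 domains per Mb and a median length of 5245 bp.

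The domains were often close to other H3K27me3. The nearest other interval of the intersection lay at a median of 1750 bp, and 447 of the 587 domains (76.1%) had one within 5 kb, against 65.7% of mid-size domains elsewhere. An interval of 20 kb or more lay within 5 kb of 100 domains (17.0%), against 4.84% elsewhere. In 116 domains the source peak in one vehicle list or the other was itself 20 kb or longer, so the interval is the part of a larger peak that the other list also held. Both source peaks overlapped over a median of 0.72 of their union. The authors' fold enrichment of the source peaks had medians of 4.44 and 4.92 in the vehicle libraries, which lay between those of chromosome 19 peaks under 2 kb (3.24 and 3.06) and of 20 kb or more (9.46 and 9.83).

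Along the chromosome the domains were spread over 51 of 59 bins of 1 Mb, with a median of 11 per bin that held a coding gene. The 15 bins in which at least 50% of coding genes were zinc finger genes had a median of 7 domains (0 to 22), and the other 40 bins a median of 12 (1 to 25). Across the 55 bins with a coding gene, Spearman's rho of the domain count was 0.23 with coding genes other than zinc finger genes and -0.18 with zinc finger genes. These are descriptions over bins of 1 chromosome, which share the same libraries.

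**Figure D2:**
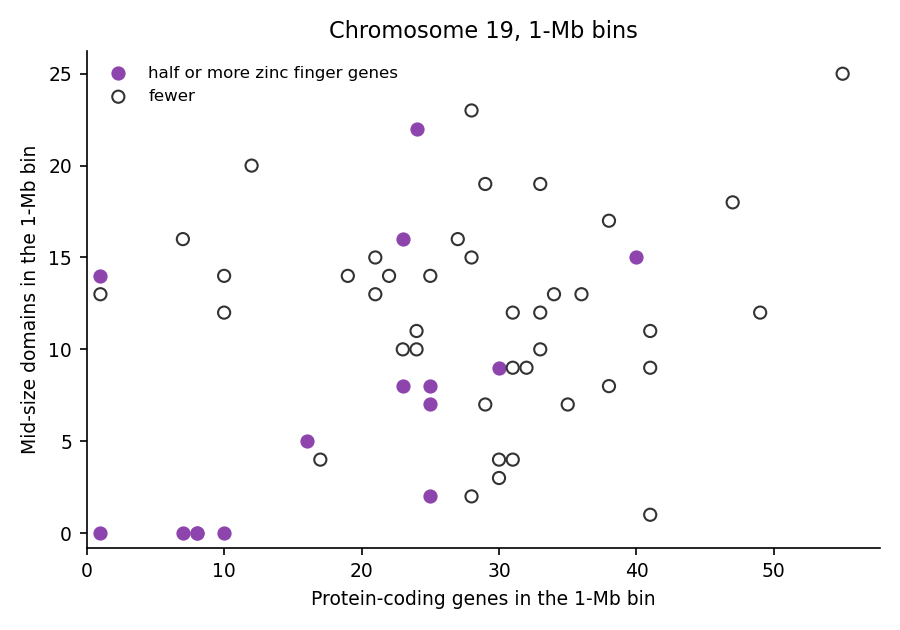
Each point is a 1-Mb bin of chromosome 19 with at least 1 coding gene, placed by its protein-coding genes (horizontal) and its mid-size domains (vertical); filled purple points are bins in which at least 50% of coding genes are zinc finger genes. The densest bin has 25 domains, and all bins with no domain are zinc finger bins.

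The longest stretch without a domain ran for 8.66 Mb (chr19:19550378-28214695), with 234 domains before it and 353 after it. It held 43 coding genes, 37 of them zinc finger genes, and includes the centromere. H3K4me3 peaks were present in it (42 and 41 in the vehicle libraries), as were 13 and 18 vehicle H3K27me3 peaks, none of which gave a mid-size interval. The second stretch without a domain ran for 1.37 Mb (chr19:36426203-37792900) and held 26 coding genes, 25 of them zinc finger genes.

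The densest bin, from 49 to 50 Mb, held 25 domains over a mixed set of genes. At its start, 4 domains covered LHB, CGB2, CGB1 and CGB5, of the gonadotropin beta-subunit gene family. LHB encodes the hormone-specific chain of luteinizing hormone, and CGB5 that of chorionic gonadotropin. The CGB domains held no H3K4me3 in any library, whereas the LHB domain (chr19:49016946-49022865, shared with SAXO3) had 620 and 388 bp with EPZ011989 and 0 bp in both vehicle libraries. Domains over TSKS, a testis gene, DKKL1, IL4I1 and the sialic acid-binding lectin genes SIGLEC11 and SIGLEC16 also held none. H3K4me3 was found in 10 of the 25 domains, with both EPZ011989 values above both vehicle values in 7 and overlapping groups in 3 (PTH2, BCL2L12, and PRR12 with PRRG2). Over all chromosome 19 domains, 32.2% held H3K4me3, and 46.6% of those had both EPZ011989 values above both vehicle values. The bin was not tested against these shares. SLC17A7, which encodes a vesicular glutamate transporter, had 4411 and 3202 bp with EPZ011989 and 2513 and 2524 bp with vehicle. The domain over RRAS, a small GTPase gene, and SCAF1 had 2152 and 2450 bp with EPZ011989 and 1091 and 1325 bp with vehicle. FLT3LG, the gene of a haematopoietic growth factor, had 2258 and 1484 bp with EPZ011989 and 1195 and 729 bp with vehicle. At PRR12 the values were 2307 and 2076 bp with EPZ011989 and 2127 and 2417 bp with vehicle.

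Gene content was dominated by single genes and by intergenic stretches. Of the 587 domains, 140 (23.9%) held a listed coding-gene start. Another 189 (32.2%) lay over a coding gene but held no listed start, and are called gene-body domains. The last 258 touched no coding gene, and 48 of these touched a lncRNA gene. Starts were listed for 1185 of the 1410 coding genes, so gene-body domains can include some over an unlisted start. A single coding gene lay under 270 domains, 2 genes under 56 and 3 genes under 3. Domains with a start had a median length of 7176 bp, against 4637 bp for domains over a gene body and 4510 bp for those with no coding gene. Together the domains lay over 302 coding genes (21.4%), and 63 of these were under more than 1 domain. SCGB2B2, of the secretoglobin family, had 5, and CATSPERD (a sperm calcium channel subunit), ZNF578, ZNF536 and ZSCAN4 had 4 each.

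The longest domain was that of ZNF112, a zinc finger gene (chr19:44356544-44376506, 19963 bp), with 727 and 629 bp of H3K4me3 with EPZ011989 and 635 and 600 bp with vehicle. The next interval up, just over the limit, was 20199 bp at DPF1, with 4664 and 2913 bp with EPZ011989 and 2032 and 2016 bp with vehicle. Among the 5 longest domains were also 2 with no coding gene and no H3K4me3 (19898 and 19634 bp), that of the inflammasome-family genes NLRP11 and NLRP4 (19594 bp, also without H3K4me3) and that of ZNF285 (19562 bp; 513 and 0 bp with EPZ011989 and 681 and 532 bp with vehicle). At the lower limit, the shortest domain was 2012 bp with no coding gene, and an interval of 1999 bp at TARM1 fell just under it.

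Gene families of chromosome 19 had different counts of genes under mid-size domains, which were not tested against each other. Zinc finger genes, taken by the symbols ZNF, ZFP, ZSCAN and ZIM, were under a domain in 37 of 264 cases (14.0%), against 21.4% of all coding genes of the chromosome. Olfactory receptor genes were under one in 12 of 20 cases, including OR10H4, OR7D4, OR7E24 and OR1I1. Several immune and detoxification families lay instead mainly under intervals of 20 kb or more. This held for 16 of 19 LILR, LAIR and KIR genes (4 under a mid-size domain), 17 of 22 CEACAM and PSG genes (2), 8 of 11 SIGLEC genes (3) and 10 of 12 CYP2 and CYP4F genes (0). Over all coding genes of the chromosome, 337 of 1410 (23.9%) lay under such an interval. A gene can lie under both kinds. Keratinocyte and adhesion genes were under a mid-size domain in 0 of 9 cases and under a larger interval in 8. Kallikrein genes were under mid-size domains in 4 of 15 cases, and fucosyltransferase genes in 3 of 5 (FUT2, FUT3 and FUT6). Among ribosomal protein genes, 1 of 12 was (RPS16).

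Among 23 transcription factor genes, 8 were under a domain (NFIC, KLF2, ZNF536, TSHZ3, POU2F2, SIX5, FOXA3 and HIF3A). Of their 15 domains, 10 had H3K4me3 in both vehicle libraries, against 25.7% of all 587 domains and 62.9% of those with a listed start. Several of the 15 shared a gene: ZNF536 had 4, and POU2F2 and TSHZ3 had 3 each. At TSHZ3, a developmental zinc finger factor, the 19410 bp domain had 3529 and 3087 bp with EPZ011989 and 2640 and 2634 bp with vehicle. The other TSHZ3 domains held no H3K4me3 peak in any library. Of 15 cytokine and growth factor genes, 6 were under a domain (FGF22, EBI3, GDF1, TGFB1, FGF21 and IL4I1, the last an amino acid oxidase), as were the channel genes KCNN1 and KCNK6 (2 of 13) and the synaptic genes GRIN3B, UNC13A and GRIK5 (3 of 11). None of the 6 LILR and KIR domains, the 3 SIGLEC domains or the 2 PSG domains held a H3K4me3 peak in any library. Over all 587 domains, 67.8% held none. Among the 12 olfactory receptor domains, that of OR1I1 alone did, with 0 and 297 bp with EPZ011989 and 251 and 0 bp with vehicle.

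With EPZ011989, no H3K27me3 peak remained in any of the 587 domains in either library, where vehicle peaks covered every domain in full by the way they were chosen. This is a description, since the vehicle H3K27me3 lists chose the members. Over all mid-size domains the share with no peak in either EPZ011989 library was 99.9% (12044 of 12059), so the chromosome 19 domains did as nearly all others did. On chromosome 19 outside the domains 4 peaks were left, all in EPZ011989 replicate 1. One lay inside an interval of 245801 bp (chr19:6767786-6769428), 26.5 kb from the nearest mid-size domain, and one at LRRC4B inside an interval of 98269 bp. The peaks at INSR and at SHKBP1 and SPTBN4 overlapped no interval of the intersection. IgG peaks touched 0 of the 587 domains in all 4 libraries. An estimate of the background, in fragments per base, was 0.373 and 0.148 in the EPZ011989 H3K27me3 libraries and 1.12 and 1.63 in the vehicle libraries. The part of this difference in the loss of peaks was not tested, and a peak list does not show signal below the caller's threshold.

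H3K4me3 peaks already stood in many domains. A peak was present in at least 1 of the 4 libraries in 189 domains (32.2%), in both EPZ011989 libraries in 161 and in both vehicle libraries in 151 (25.7%, against 22.2% on the other chromosomes). By gene content, both vehicle libraries had H3K4me3 in 62.9% of the 140 domains with a coding-gene start, against 70.2% elsewhere, in 20.1% of those over a gene body and in 9.69% of those with no coding gene. By length, 25.4% of the 122 domains of 2 to 3 kb had vehicle H3K4me3, against 10.9% of such domains on other chromosomes, whereas 28.0% of the 125 domains of 10 to 20 kb had it, against 37.8% elsewhere. Between these lengths the shares were 18.2% against 16.7% (3 to 5 kb) and 31.4% against 30.0% (5 to 10 kb). On chromosome 19 the peaks often ran over a domain's edge. Of the H3K4me3 peaks touching a domain, 53.8% and 55.5% with EPZ011989 and 46.6% and 48.9% with vehicle lay wholly inside it, against 71.0% and 72.4% with EPZ011989 and 70.9% and 71.6% with vehicle on the other chromosomes.

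H3K4me3 covered more of the domains with EPZ011989. The covered length was 303.3 and 253.3 kb in the EPZ011989 libraries and 202.0 and 211.8 kb in the vehicle libraries. Both EPZ011989 values lay above both vehicle values, with means of 278 ± 35.3 kb and 207 ± 6.89 kb (SD, n = 2 each), a ratio of 1.35. The exact two-sided permutation test over the 4 libraries gave p = 0.333, the smallest it can give with 2 against 2. In mid-size domains of the other chromosomes the ratio was 1.37. Within chromosome 19, it was 1.24 in the other H3K27me3 intervals (413 ± 40.7 kb with EPZ011989 and 332 ± 8.12 kb with vehicle). Those pool 852 intervals under 2 kb with 176 of 20 kb or more, which differed from each other base by base, as given below. Outside H3K27me3 intervals the ratio was 1.00 (1925 ± 226 kb with EPZ011989 and 1923 ± 61.0 kb with vehicle), and there the groups overlapped. The background estimate of the H3K4me3 libraries, 1.48 and 1.24 fragments per base with EPZ011989 and 0.572 and 0.857 with vehicle, also differed between the groups; its part in the ratio was not tested.

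**Figure D3:**
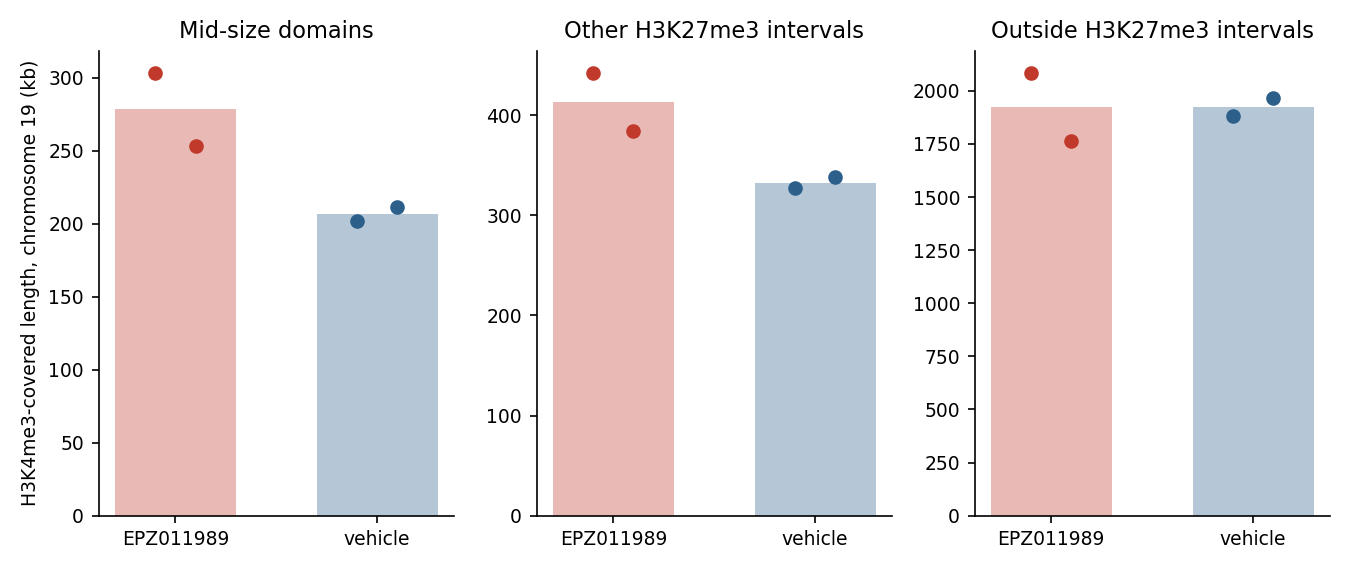
H3K4me3-covered length on chromosome 19, in kb, in mid-size domains, in other H3K27me3 intervals and outside both. The other intervals pool those under 2 kb with those of 20 kb or more. Points are libraries (2 per group), bars are means, and each panel has its own axis from 0. Both EPZ011989 libraries (red) exceed both vehicle libraries (blue) in the first 2 panels and not in the third, where the means are 1925 and 1923 kb.

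Base by base, far more of the domains was covered only with EPZ011989 than only with vehicle. Bases that both EPZ011989 libraries covered and no vehicle library did (gained bases) came to 34.9 kb, and bases that both vehicle libraries covered and no EPZ011989 library did (lost bases) to 0.63 kb. These equal 19.2% and 0.348% of the 181 kb that both vehicle libraries covered in the domains. In intervals of 20 kb or more the same shares were 40.8% and 0.373%, in those under 2 kb 0.549% and 0.347%, and outside H3K27me3 intervals 2.29% and 2.35% (38.9 and 40.0 kb). Most of the gain in the domains adjoined an existing peak: 25.1 kb (71.8%) touched a vehicle peak and 9.83 kb (28.2%) stood apart from one, against 79.3% and 20.7% on the other chromosomes. Gained bases were found in 96 domains (16.4%, against 17.0% elsewhere) and lost bases in 12 (2.04%, against 1.38% elsewhere).

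Domain by domain, none of the 189 with H3K4me3 passed the limma test over all 3595 mid-size domains with a peak (Benjamini-Hochberg adjusted p under 0.05), against 0.111% of those 3595 called higher with EPZ011989 and 0.0% called lower. Without adjustment, p was under 0.05 for 44 domains with a positive difference (23.3%, background 23.6%) and for 0 with a negative one (background 0.167%). The median difference was 238.5 bp, against 292.0 bp over all tested, and 154 differences were positive and 28 negative. Quantile normalization, which forces the libraries to the same distribution, moved this split to 70 positive and 119 negative and the medians to -104 bp on chromosome 19 and -47.9 bp over all tested. Both EPZ011989 values lay above both vehicle values in 88 domains (46.6%, background 51.5%) and below them in 7 (3.70%, background 2.2%). In 25 domains the groups were separated by 500 bp or more with EPZ011989 longer (13.2%, background 13.6%), and in 0 with it shorter (background 0.0278%). Chromosome 19 domains were thus close to the background share by each of these counts. Without EPZ011989 H3K4me3 replicate 2, 19 domains passed the limma test and 62 were longer, without Vehicle H3K4me3 replicate 2, 39 were longer, and scaling every library to the same genome-wide H3K4me3 length let 5 pass.

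The 25 longer domains had a median length of 9866 bp, against 5245 bp for all 587, and none was shorter than 4924 bp. The rule is a fixed gap in covered bp, which a short domain has less room to reach. Its part in these lengths was not tested. Of the 25, 16 held a listed coding-gene start and 4 touched no coding gene. Of all 189 domains with H3K4me3, 102 held a listed start and 35 touched no coding gene, and the shares were not tested against each other. VSTM2B, the gene of an immunoglobulin-domain membrane protein, had the largest difference. Its domain (chr19:29514716-29532003) had 5996 and 5114 bp with EPZ011989 and 2647 and 2904 bp with vehicle, a difference of 2779.5 ± 385 bp (SE, limma adjusted p = 0.0762). The gained bases there, 2052 in all, adjoined a vehicle peak, and the new H3K4me3 reached 199 and 196 of the 300 bases of the start window printed above, which held none with vehicle. The domain over MAP2K7 (a kinase gene of the JNK pathway), SNAPC2 and TGFBR3L had 4819 and 4076 bp with EPZ011989 and 2494 and 2158 bp with vehicle (2121.5 ± 344 bp, limma adjusted p = 0.0784). The domain over ARHGAP45 and ABCA7, the gene of a lipid transporter, had 2792 and 2149 bp with EPZ011989 and 1440 and 894 bp with vehicle (1303.5 ± 320 bp, limma adjusted p = 0.121).

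At TGFB1, the gene of a growth factor, and B9D2 (chr19:41343424-41358119) H3K4me3 covered 3028 and 3119 bp with EPZ011989 and 490 and 1467 bp with vehicle (2095 ± 361 bp, limma adjusted p = 0.0806). Its start window was fully covered in all 4 libraries, so the 1552 gained bases lay elsewhere in the domain, and all of them adjoined a vehicle peak. At NOTCH3, a receptor of developmental signalling (chr19:15192889-15203449), the values were 2609 and 2916 bp with EPZ011989 and 1408 and 990 bp with vehicle (1563.5 ± 241 bp, limma adjusted p = 0.0762). At TBXA2R, the thromboxane receptor gene (chr19:3602613-3608494), they were 1000 and 1294 bp with EPZ011989 and 0 bp in both vehicle libraries. S1PR5, a sphingosine phosphate receptor gene (chr19:10510421-10524529), had 832 and 569 bp with EPZ011989 and 0 bp in both vehicle libraries. GIPR, the receptor gene of an incretin hormone, had 1617 and 1626 bp with EPZ011989 and 269 and 907 bp with vehicle. The limma adjusted p was 0.0762 at TBXA2R, 0.116 at S1PR5 and 0.120 at GIPR. That the groups are apart in each of these domains follows from the 500 bp rule that chose them.

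PLPPR3, of a family of neuronal membrane proteins, lies with AZU1, the gene of a neutrophil granule protein, under chr19:819306-828138. H3K4me3 covered 1642 and 1532 bp of it with EPZ011989 and 0 bp in both vehicle libraries, and its adjusted p of 0.0536 was the smallest of the 189 by limma. Both EPZ011989 libraries covered the whole PLPPR3 start window, and the AZU1 window held no peak in any library. SHISA7, the gene of a receptor auxiliary subunit at synapses (chr19:55435571-55448170), had 1783 and 1329 bp with EPZ011989 and 0 and 249 bp with vehicle (1431.5 ± 215 bp, limma adjusted p = 0.0762). Its domain also had the second highest H3K27me3 fold of the 587 in vehicle replicate 1, 15.5. APC2, a gene related to the tumour suppressor APC, had 1541 and 509 bp with EPZ011989 and 0 bp in both vehicle libraries, all outside its start window.

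Among regulators, POU2F2, a B-cell transcription factor gene (chr19:42173101-42183416), had 2996 and 2569 bp with EPZ011989 and 1077 and 1367 bp with vehicle (1560.5 ± 241 bp, limma adjusted p = 0.0762). ZNF536, a zinc finger gene of the nervous system, had 4827 and 5073 bp with EPZ011989 and 3980 and 3931 bp with vehicle in its domain at chr19:30219587-30233876. Over the 37 zinc finger genes lay 52 domains, 23 of them with H3K4me3, and this domain alone was longer by the 500 bp rule. Of all 189 domains with H3K4me3, 13.2% were longer. The limma adjusted p at ZNF536 was 0.131, and quantile normalization turned its difference to -39.8 bp. The 13534 bp domain at chr19:18285711-18299244, with no coding gene, had 3762 and 2543 bp with EPZ011989 and 1418 and 2012 bp with vehicle (limma adjusted p = 0.169).

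**Figure D4:**
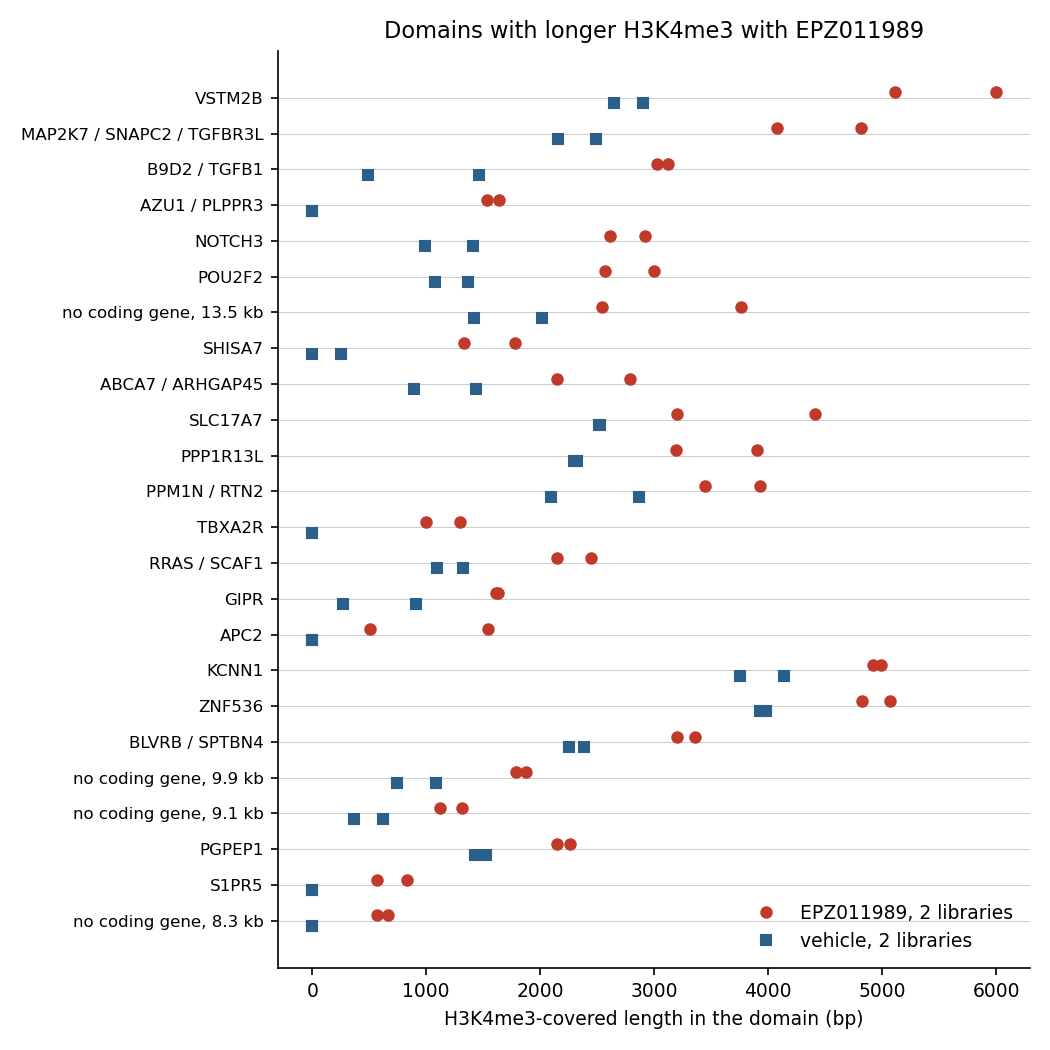
H3K4me3-covered length in bp (horizontal) in 24 of the 25 domains in which both EPZ011989 libraries exceeded both vehicle libraries by 500 bp or more, ordered by the difference of the means; red circles are the 2 EPZ011989 libraries and blue squares the 2 vehicle libraries. The groups are apart in every row by the rule, VSTM2B has the largest difference, and 5 rows have both vehicle libraries at 0 bp.

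H3K4me3 appeared from 0 bp in 6 domains (3.17% of the 189, background 5.06%), that is, with a peak in each EPZ011989 library and none with vehicle. These were the domains of PLPPR3 and AZU1, APC2, TBXA2R, S1PR5, LHB and SAXO3, and one with no coding gene (chr19:57101382-57109668), which had 566 and 667 bp with EPZ011989. The opposite pattern was found in 1 domain (background 0.389%), at SPMAP2, which had 0 bp in both EPZ011989 libraries and 237 and 45 bp with vehicle.

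On chromosome 19, the coding-gene starts marked by H3K4me3 with EPZ011989 alone all lay in H3K27me3 intervals of 2 kb or more. Of the 164 start windows in mid-size domains, 10 (6.10%) had H3K4me3 in each EPZ011989 library and none with vehicle, against 0.885% of the 15812 coding-gene start windows of the table. The opposite pattern was found in 0 of the 164, against 0.0632% of the 15812. Those 15812 include starts outside H3K27me3. Counted by domain, H3K4me3 appeared from 0 bp in 3.57% of chromosome 19 mid-size domains with a start, against 3.88% of such domains on other chromosomes. The 10 were PLPPR3, VSTM2B, SHISA7, TBXA2R, S1PR5, KCNK6, FSTL3, FUT2, SPRED3 and APOC1. Any overlap of 1 bp counted: the FUT2 window had 79 and 6 bp with EPZ011989 and that of FSTL3 300 and 28 bp. The domains of VSTM2B, SHISA7, KCNK6, FUT2, SPRED3 and APOC1 already held H3K4me3 outside the window in a vehicle library or in both. Over all of chromosome 19 there were 17 such windows among 1185 starts. The other 7 lay in intervals of 20 kb or more (2.81% of 249 starts), and 0 lay among 161 starts in shorter intervals or 611 starts outside H3K27me3. H3K4me3 stood in all 4 libraries at 74 of the 164 windows (45.1%) and in no library at 67 (40.9%), against 70.4% and 26.7% of the 611 starts outside H3K27me3.

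The windows differed in CG content along the same lines. The 74 windows with H3K4me3 in all 4 libraries had a median of 27 CG dinucleotides, and the 67 with none a median of 10. The split was not particular to the domains: at chromosome 19 starts outside H3K27me3 the same medians were 26 and 9. The 10 that were marked with EPZ011989 alone had a median of 16, with a range of 8 to 44. The PLPPR3 sequence above, with 41, is near the top of that range, and the S1PR5 sequence, with 14, lies just under the median. The GC-box letters GGGCGG, searched on both strands, were in 9 of the 10, in 86.5% of the 74, in 52.2% of the 67 and in 66.2% of all 1185 chromosome 19 windows. A match is a description of the letters in the window.

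**Figure D5:**
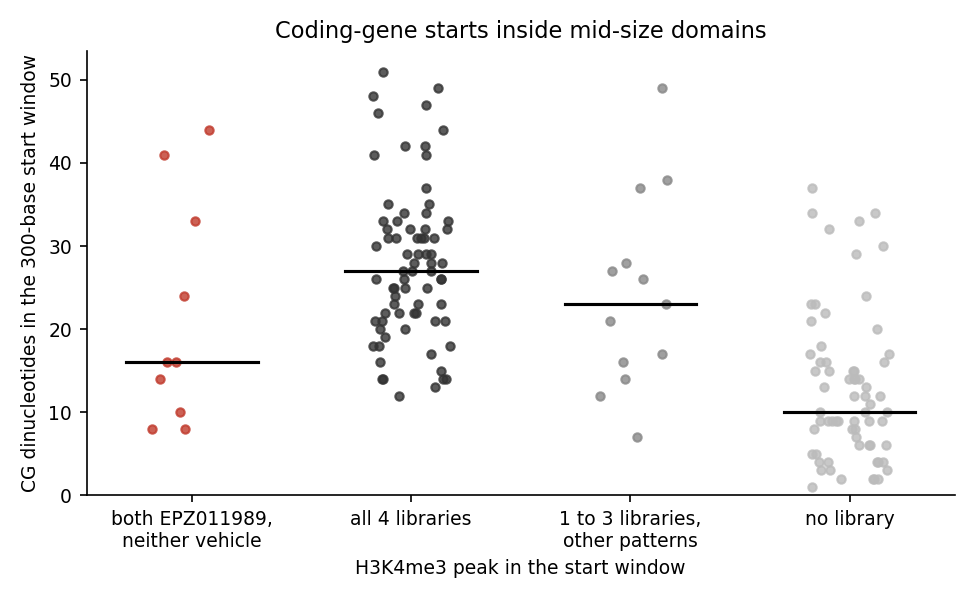
CG dinucleotides in the 300-base window of each of the 164 coding-gene starts inside mid-size domains, grouped by where H3K4me3 peaks were found in the window; each point is a start and each line a median. Medians are 16 for the windows marked with EPZ011989 alone, 27 for those marked in all 4 libraries, 23 for other patterns and 10 for those with no H3K4me3.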

How the data were processed

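MKL-1 chromatin was profiled by CUT&RUN with antibodies diluted 1 to 100, 30 min of nuclease digestion and an E. coli spike-in, per the labels' protocols. MACS2 2.1.1.20160309 is named in the submitters' processing notes, along with Bowtie2 2.2.9, FastQC and SAMtools 0.1.19; settings, any control and any use of the spike-in are not given in the sources used here. The authors deposited 1 broad peak list per library (hg38, replicates not pooled), with a score, a fold enrichment ratio and −log10 p and q values for each peak. The deposited lists hold no read counts, so depth is unknown. A background in fragments per base was estimated from the fold and −log10 p of a low peak, on the assumption that they follow MACS2's pseudocount of 1 and a Poisson model.

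Peaks of a list were merged and lists intersected in Python 3.11.15 (numpy 2.4.6, pandas 2.3.3); any overlap of 1 bp counted. Genes and start sites came from RefSeq (GRCh38.p14). H3K4me3-covered bp per domain were tested with limma 3.58.1 (R 4.3.3, trend and robust) over the 3595 mid-size domains with a H3K4me3 peak in at least 1 of 4 libraries, with Benjamini-Hochberg adjustment; the script was tested on simulated data. The covered length of all domains was tested by exact permutation. Named domains were the 5 longest, up to 10 with the largest longer H3K4me3, those of the densest bin and list members; the remaining longer domains, the start windows and the sequences printed were chosen after their values were seen. The members and gene lists were chosen with earlier results of these data known. Alternatives are under the closing section. The values of 1 of the 25 longer domains are not reported here.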

Additional observations from a re-analysis of the deposited data

How the results depend on the processing

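The number of domains depended on the peak threshold: keeping only vehicle H3K27me3 peaks with a −log10 q of 5 or more left 247 domains, of which 36.0% had vehicle H3K4me3 and 69.2% touched a coding gene, and 15 in the densest bin. With 1 vehicle H3K27me3 list alone there were 633 to 677 domains, and 25.6% to 31.5% had vehicle H3K4me3. A H3K4me3 overlap of at least 500 bp gave 21.6% with vehicle H3K4me3, and an overlap of at least 50% of the domain gave 41.9% touching a gene. A gap of 1000 bp left 8 longer domains. The limma count of 0 higher became 2 with the stricter H3K4me3 threshold, 5 after scaling to equal genome-wide H3K4me3 length and 9 with a replicate block. Leaving out libraries gave 0 to 19 higher, 23 to 62 longer and 0 to 1 shorter domains; 19 and 62 came without EPZ011989 H3K4me3 replicate 2. Without Vehicle H3K4me3 replicate 2, 39 were longer. The lone sample of an arm was then assumed to vary like the other group. The log2 ratio of the covered length stayed positive, 0.29 to 0.55 without 1 library. All 25 longer domains kept their direction under the alternatives run for single domains, except that quantile normalization gave -65.4 bp at KCNN1 and -39.8 bp at ZNF536; the cause was not tested. The fit with no filter could not be fitted, since most variances were 0. Same-numbered libraries did not deviate together (correlation -0.0107), so the block gives no paired result.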

Other observations

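Of the 142 microRNA genes on chromosome 19, 9 lay under a mid-size domain. MIR7-3 encodes miR-7, a microRNA of endocrine and neuronal cells, and is shown for its seed (bases 2 to 8, in capitals).
hsa-miR-7-5p: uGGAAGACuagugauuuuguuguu
Its domain (chr19:4767861-4774399, 6539 bp, no coding gene) had 856 and 891 bp of H3K4me3 with EPZ011989 and 0 and 386 bp with vehicle, so that the groups did not overlap. MIR642A and MIR642B lay in the GIPR domain described above. MIR1199, MIR4322, MIR6795 and MIR4530 lay in domains with 1148 to 3978 bp with EPZ011989 and 1139 to 3553 bp with vehicle, with overlapping groups for MIR4322 and MIR6795. The MIR6088 domain had 1069 and 0 bp with EPZ011989 and 338 and 0 bp with vehicle. MIR7975 lay in a domain with no H3K4me3. Among other gene kinds, 80 of 478 lncRNA genes (16.7%) and 61 of 481 pseudogenes (12.7%) were under a domain, against 21.4% of coding genes.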
